A study of Homo sapiens with 2 samples.

Results

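Transcripts of 10 enzymes that make, lengthen, desaturate or activate fatty acids were followed in mammospheres (floating spheres) of MDA-MB-231 cells, a long-established human line from triple-negative, mesenchymal-like breast cancer. The enzymes were chosen by name and function, and with earlier results of these data known: ACLY, ACACA and FASN make palmitate, SCD, FADS1 and FADS2 desaturate, ELOVL1, ELOVL5 and ELOVL6 elongate, and ACSL3 activates. All 10 were among the 19826 genes of the count table. The 2 mM library came from cells adapted to metformin, a biguanide that inhibits respiratory chain complex I, and the 0 mM library from cells kept without it. Cells of both arms spent 30 days in flat culture in DMEM with high glucose, then 10 days as spheres on plates to which they do not attach, and the spheres were dissociated with trypsin/EDTA. Spheres grown from a line are a model of cancer cells alone, with no stroma or blood supply, and the labels do not say how many cultures went into a library.

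Fatty acid synthesis starts in the cytosol. ATP citrate lyase (ACLY) cuts citrate to acetyl-CoA, acetyl-CoA carboxylase (ACACA) turns acetyl-CoA into malonyl-CoA, and fatty acid synthase (FASN) joins these units into palmitate at the cost of NADPH. Stearoyl-CoA desaturase (SCD) then sets a double bond into saturated chains, ELOVL6 lengthens palmitate, ELOVL1 makes very long chains, and ELOVL5 works with the desaturases FADS1 and FADS2 on polyunsaturated chains. ACSL3 ligates long-chain fatty acids to CoA on the endoplasmic reticulum and on lipid droplets. Many of these genes, with those of cholesterol synthesis, are targets of the transcription factors SREBP-1 and SREBP-2, and breast cancer cells are known for high activity of the pathway.

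The promoters of SCD, ELOVL6 and ACSL3 are shown because levels of these 3 genes separated groups of cells in both libraries, SCD and ELOVL6 in one direction and ACSL3 in the other. They are RefSeq sequences of GRCh38.p14, from 250 bases before the annotated start to 50 bases after it, on the gene's strand. SCD lies at chr10:100346983-100347282 (plus strand), ELOVL6 at chr4:110198566-110198865 (minus strand) and ACSL3 at chr2:222860786-222861085 (plus strand). Capitals mark matches on either strand to the CCAAT box (CCAAT) and the GC box (GGGCGG).
SCD: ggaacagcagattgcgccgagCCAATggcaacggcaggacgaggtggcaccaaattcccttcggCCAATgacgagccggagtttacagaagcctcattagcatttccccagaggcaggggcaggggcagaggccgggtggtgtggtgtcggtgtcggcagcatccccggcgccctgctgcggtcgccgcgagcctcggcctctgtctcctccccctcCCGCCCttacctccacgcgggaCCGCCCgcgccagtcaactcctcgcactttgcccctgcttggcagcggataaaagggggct
ELOVL6: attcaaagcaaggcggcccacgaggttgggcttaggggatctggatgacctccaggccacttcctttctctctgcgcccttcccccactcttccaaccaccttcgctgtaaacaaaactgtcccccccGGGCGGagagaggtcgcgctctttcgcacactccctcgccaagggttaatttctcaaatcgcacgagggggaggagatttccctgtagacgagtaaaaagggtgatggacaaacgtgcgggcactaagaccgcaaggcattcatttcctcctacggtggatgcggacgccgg
ACSL3: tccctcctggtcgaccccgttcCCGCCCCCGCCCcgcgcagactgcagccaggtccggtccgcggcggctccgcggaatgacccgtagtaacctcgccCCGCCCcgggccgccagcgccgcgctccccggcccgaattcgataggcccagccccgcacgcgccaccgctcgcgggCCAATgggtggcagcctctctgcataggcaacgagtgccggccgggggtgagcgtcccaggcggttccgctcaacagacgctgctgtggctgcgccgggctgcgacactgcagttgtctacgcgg
The SCD window held CCAAT boxes with their first bases at -229 and -186 from the start and GC boxes at -33 and -11. ACSL3 had 1 CCAAT box at -75 and 3 GC boxes, and ELOVL6 had 1 GC box at -122 and no CCAAT box. No match of one motif overlapped a match of the other in these 3 windows.

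Promoters were found for 9 of the 10 enzymes, all but FASN, 13 promoters in all. ACLY and FADS2 each had 2 windows that overlap, and the boxes of ACLY are counted in both of its windows. A CCAAT box occurred in 9 of the 13, from 7 genes, and in 34.6% of 35116 promoters of all genes, and a GC box in 10 of the 13, from 8 genes, and in 45% of all promoters. The E-box CACGTG was in the promoter of ELOVL5 alone of the 9, and in 7.26% of all. A core of the sterol regulatory element (TCACNCCAC, 1.13% of all promoters) and a core of the interferon-stimulated response element (GAAANNGAA, 8.11%) had no match in the 13. A match of letters is a description of the sequence and shows no binding.

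The 2 mM library held 991 cells and 3264343 unique molecular identifiers (UMIs, tags that mark single captured transcripts), and the 0 mM library 1000 cells and 4403045 UMIs. The median cell had 2509 UMIs at 2 mM and 3386 at 0 mM, so shares of cells are given after each cell was thinned to 1000 UMIs. Each dose had 1 library. There was no replicate check and no test, and every 95% interval below covers counting error only and takes each UMI as a separate draw, so it leaves out the spread between cells and cultures and is too narrow. Markers of leukocytes summed to 16.8 CPM (counts scaled to a library total of 1000000) at 2 mM and 6.13 CPM at 0 mM, with CD14 giving 52 of 55 UMIs at 2 mM and 20 of 27 at 0 mM. Fibroblast, endothelial and adipocyte markers summed to 1.53 to 6.74 CPM at 2 mM and 0.908 to 3.63 CPM at 0 mM, against 4593 CPM at 2 mM and 5233 CPM at 0 mM for 7 markers of the line. Of these E-cadherin (CDH1), which the line lacks, had 0 UMIs at 2 mM and 2 at 0 mM, where 3 counts equal 0.919 CPM at 2 mM and 0.681 CPM at 0 mM.

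At 2 mM metformin FASN was higher than at 0 mM and ELOVL1 lower, each by more than 1.5-fold. Counting intervals also lay above 1 for ACACA, ACLY and SCD, and below 1 for ELOVL5. How many of all genes had intervals that left out 1 was not counted, so these have no background beside them. FASN stood at 75.7 CPM in 2 mM cells and 38.6 CPM in 0 mM cells, and ELOVL1, at the other end, at 41.4 CPM in 2 mM cells and 63.6 CPM in 0 mM cells. The 10 enzymes together took 1358 CPM in 2 mM cells against 1258 CPM in 0 mM cells, with a ratio of 1.08 (1.04 to 1.12). The sum thus joined enzymes on both sides of 1.

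Ratios are called by size, at 1.5-fold either way, for genes that reach 50 CPM in either group and have 50 or more UMIs over both. Of the 9 enzymes that passed this minimum, 1 was at least 1.5-fold higher at 2 mM, where 5.04% of 4105 genes were, and 1 was at least 1.5-fold lower, where 3.31% were. The ratio was above 1 for 6 of the 9 and below 1 for 3. Their median log2 ratio was 0.12 and that of all 4105 genes 0.02. Over all genes 207 were higher and 136 lower, against 140 higher and 223 lower when libraries were scaled with TMM factors, and under these FASN and ELOVL1 stayed past 1.5-fold.

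FASN, which carries out the whole chain of condensations on 1 protein, had 247 UMIs at 2 mM and 170 at 0 mM, and a CPM ratio of 1.96 (1.61 to 2.40). ACACA, whose enzyme makes malonyl-CoA, had 97 UMIs or 29.7 CPM at 2 mM and 74 UMIs or 16.8 CPM at 0 mM. Its ratio of 1.77 (1.29 to 2.43) came from levels under the minimum and was not counted. ACLY, which feeds acetyl-CoA into both fatty acid and sterol synthesis, had 137 CPM in 2 mM cells against 109 CPM in 0 mM cells, with a ratio of 1.26 (1.10 to 1.43). All 3 enzymes of palmitate synthesis thus had intervals above 1, with no count of such intervals over all genes to set beside this. The intervals of FASN and ACACA, and of ACACA and ACLY, overlapped. Summed, the 3 enzymes reached 243 CPM in 2 mM cells against 165 CPM in 0 mM cells, with a ratio of 1.47 (1.33 to 1.63).

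SCD, the delta-9 desaturase that makes oleate and palmitoleate, had 199 CPM in 2 mM cells against 164 CPM in 0 mM cells, with a ratio of 1.21 (1.09 to 1.35). The delta-5 desaturase FADS1 had 352 CPM in 2 mM cells against 328 CPM in 0 mM cells, with a ratio of 1.07 (0.992 to 1.16). Its neighbour on chromosome 11, the delta-6 desaturase FADS2, had 136 CPM in 2 mM cells against 147 CPM in 0 mM cells, with a ratio of 0.928 (0.820 to 1.05). Only SCD among the desaturases had an interval that left out 1. SCD and FADS2 have pseudogene copies, and how reads shared with a copy were counted is not given in the sources used here, so their counts are uncertain to that extent.

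Among elongases, ELOVL1, which extends saturated and monounsaturated chains for sphingolipids, had 135 UMIs at 2 mM and 280 at 0 mM, a CPM ratio of 0.650 (0.526 to 0.801). ELOVL5, the elongase of polyunsaturated chains, had 127 CPM in 2 mM cells against 154 CPM in 0 mM cells, with a ratio of 0.826 (0.729 to 0.934). ELOVL6, which takes palmitate to stearate, had 113 CPM in 2 mM cells against 104 CPM in 0 mM cells, with a ratio of 1.09 (0.946 to 1.25). With cells weighted equally the log2 ratio of ELOVL1 was -0.45, inside 1.5-fold. ELOVL1 and ELOVL5 thus lay below parity with intervals that left out 1, and ELOVL6 could not be told from parity at this depth. The elongases summed to 281 CPM in 2 mM cells against 321 CPM in 0 mM cells, with a ratio of 0.876 (0.805 to 0.952). ACSL3 had 148 CPM in 2 mM cells against 133 CPM in 0 mM cells, with a ratio of 1.11 (0.980 to 1.25).

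**Figure D1:**
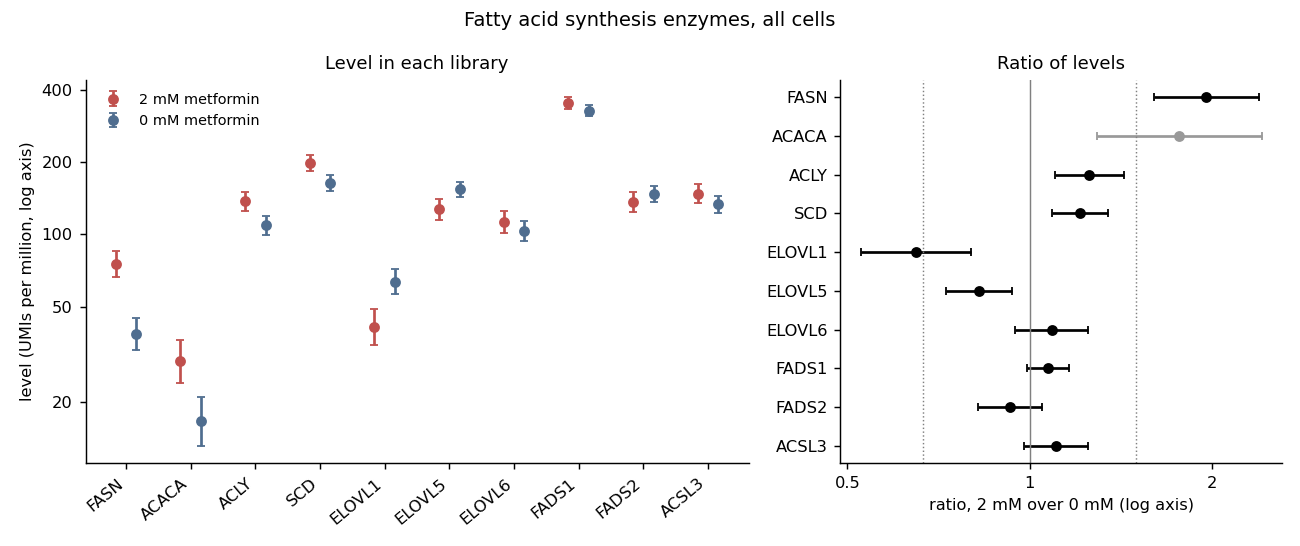
Left, level of each enzyme in CPM (log axis) in the 2 mM library (red) and the 0 mM library (blue), with exact Poisson 95% intervals; right, ratio of the 2 levels (log axis) with its 95% interval and dotted lines at 1.5-fold, ACACA in grey because it stayed under 50 CPM in both libraries. FASN lies beyond the upper line at 1.96 and ELOVL1 beyond the lower line at 0.650.

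The share of cells in which an enzyme was seen had the same order between the doses as the level for every enzyme but ACSL3, when cells were thinned to 1000 UMIs. Thinned to 500 UMIs, ACSL3 had the order of its level, with 7.67% of 2 mM cells and 7.10% of 0 mM cells, and FADS1 did not, with 14.0% of 2 mM cells and 16.9% of 0 mM cells. Thinned to 2000 UMIs, ACSL3 was again the exception, with 22.3% of 2 mM cells and 25.4% of 0 mM cells. After thinning to 1000 UMIs, FASN had a UMI in 8.12% (6.33 to 10.2) of 800 cells at 2 mM and in 3.60% (2.51 to 5.0) of 944 cells at 0 mM. Unthinned, the shares were 18.9% at 2 mM and 13.6% at 0 mM. ACLY was seen in 13.6% of thinned 2 mM cells and 9.96% of 0 mM cells, and SCD in 19.9% of 2 mM cells and 16.1% of 0 mM cells. Among the 10 enzymes, FASN was the 1 whose share intervals did not overlap between the doses. How many of all genes had share intervals apart was not counted, so no result is read from this.

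ELOVL1 was seen in 3.0% (1.93 to 4.43) of thinned 2 mM cells and 5.51% (4.14 to 7.16) of 0 mM cells, and ELOVL5 in 10.5% of 2 mM cells and 14.1% of 0 mM cells. ACACA was seen in 2.62% of thinned 2 mM cells and 2.12% of 0 mM cells, ELOVL6 in 11.9% of 2 mM cells and 9.53% of 0 mM cells, and FADS2 in 11.2% of 2 mM cells and 13.3% of 0 mM cells. FADS1 was seen in 29.4% of thinned 2 mM cells and 27.1% of 0 mM cells, and since its order turned at 500 UMIs none is read from it. Unthinned, FADS1 had the opposite order, at 53.1% of 2 mM cells and 61.0% of 0 mM cells, and the same held for SCD at 38.2% of 2 mM cells and 42.2% of 0 mM cells, so no order is read from unthinned shares. ACSL3 was seen in 11.1% of thinned 2 mM cells and 12.1% of 0 mM cells, against a CPM ratio above 1, and gives no order either. The series holds 1 cell line and no cell type that should lack these enzymes, so the part of free RNA in any share was not tested.

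Single cells held few UMIs of each enzyme. The highest number of UMIs of 1 enzyme in a single cell was 12 for FADS1 in each library. A thinned cell held on average 1.40 UMIs of the 10 enzymes at 2 mM and 1.27 at 0 mM. The variance of this sum over cells, divided by its mean, was 1.27 at 2 mM and 1.24 at 0 mM, where independent draws at 1 common level give 1. None of the 10 was seen in 29.5% (26.4 to 32.8) of 2 mM cells and 31.5% (28.5 to 34.5) of 0 mM cells, and 5 or more different enzymes were seen in 4 cells at 2 mM and 5 cells at 0 mM.

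Cells were next divided into 4 exclusive states by counts of marker transcripts among 1000 UMIs, none of which is an enzyme of the pathway. States cover the 800 cells at 2 mM and 944 at 0 mM with 1000 or more UMIs, and shares are of these. Cells with 3 or more UMIs of G2/M genes made up 47.5% of 2 mM cells and 56.8% of 0 mM cells. Among the remainder, S-phase cells had 3 or more UMIs of S-phase genes, and interferon cells 3 or more UMIs of interferon-stimulated genes such as ISG15, IFIT1 and MX1, and all others were called low. Interferon cells were 16.8% of these 2 mM cells (134 cells) and 19.8% of these 0 mM cells (187 cells). Low cells were 29.0% of the 2 mM cells (232 cells) and 16.8% of the 0 mM cells (159 cells). With G2/M and S-phase cells included, 31.8% of 2 mM cells and 49.0% of 0 mM cells had 3 or more interferon UMIs. These are ranges of a score and not cell types: 22.2% of 2 mM cells and 16.7% of 0 mM cells lay at the interferon threshold or 1 UMI under it, and 30.5% of 2 mM cells and 30.6% of 0 mM cells at the G2/M threshold or 1 UMI under it.

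The 10 enzymes summed to their lowest level in interferon cells of both libraries, 967 CPM among 2 mM cells and 1045 among 0 mM cells. Low cells had 1527 CPM among 2 mM cells and 1172 among 0 mM cells, and G2/M cells 1382 CPM among 2 mM cells and 1323 among 0 mM cells. The sum was thus higher at 2 mM than at 0 mM in low and G2/M cells and lower in interferon cells. These sums have no intervals, and the levels of the doses lay close in G2/M and interferon cells, so no order is read there. Mitochondrially encoded transcripts took 4.44% of UMIs in interferon cells and 6.03% in low cells at 2 mM, and 4.71% in interferon cells and 6.42% in low cells at 0 mM. The median interferon cell had 2962 UMIs at 2 mM and 3621 at 0 mM, and the median low cell 2730 UMIs at 2 mM and 3165 at 0 mM. The part of these differences in the enzyme levels was not tested.

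In low cells the 2 mM library had more FASN, with 64 UMIs or 84.6 CPM at 2 mM against 16 UMIs or 26.3 CPM at 0 mM, with a ratio of 3.22 (1.84 to 5.96). ACLY had 168 CPM in 2 mM low cells against 93.7 CPM in 0 mM low cells, with a ratio of 1.79 (1.30 to 2.49). FADS1 had 426 CPM in 2 mM low cells against 306 CPM in 0 mM low cells, with a ratio of 1.39 (1.16 to 1.68), and SCD 246 CPM in 2 mM low cells against 186 CPM in 0 mM low cells, with a ratio of 1.32 (1.04 to 1.69). FASN and ACLY were the 2 of 8 enzymes compared in low cells that passed 1.5-fold upward, where 12.4% of all genes did, and 0 of the 8 passed it downward, where 5.67% did. The median log2 ratio of the 8 was 0.38, against 0.06 over all genes. ELOVL1, under the minimum in low cells and not counted, had 17 UMIs at 2 mM and 32 at 0 mM, a CPM ratio of 0.427 (0.223 to 0.793). ACACA, also under it, had a ratio of 2.25 (1.06 to 5.20). With states called at 5 UMIs the ratio in low cells was 2.30 for FASN and the log2 ratio of ACLY was 0.57, just inside 1.5-fold. The ratio of ELOVL6 in low cells, 1.07 (0.790 to 1.44) as reported, was 2.06 with states called at 2 UMIs and 3.17 with states called at 2000 UMIs per cell.

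In G2/M cells FASN had 82.0 CPM in 2 mM cells against 43.9 CPM in 0 mM cells, with a ratio of 1.87 (1.45 to 2.41), and ELOVL1 47.9 CPM in 2 mM cells against 66.5 CPM in 0 mM cells, with a ratio of 0.720 (0.546 to 0.942). FASN was the 1 enzyme of 9 above 1.5-fold there, where 5.79% of genes were, and 0 of 9 were below, where 4.14% were. In interferon cells FASN was too sparse to compare, with 19 UMIs at 2 mM and 23 at 0 mM and a ratio of 1.31 (0.673 to 2.51). ACLY had 84.1 CPM in 2 mM interferon cells against 85.3 CPM in 0 mM interferon cells, with a ratio of 0.986 (0.658 to 1.46). Of 8 enzymes compared in interferon cells, 0 were at least 1.5-fold higher at 2 mM, where 9.25% of genes were. ELOVL1 was the 1 at least 1.5-fold lower, at 0.659 (0.371 to 1.13), where 8.67% of genes were, and its interval held 1. FADS2 at 0.678 (0.454 to 0.997), inside 1.5-fold, was the 1 of the 8 whose interval left out 1. Whether the dose ratio differs between states was not tested, since each dose had 1 library.

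In S-phase cells, 54 at 2 mM and 62 at 0 mM, SCD had 47 UMIs at 2 mM and 34 at 0 mM, a CPM ratio of 1.87 (1.18 to 2.99). ELOVL5 had 13 UMIs in these cells at 2 mM and 42 at 0 mM, a ratio of 0.418 (0.206 to 0.794). SCD was the 1 of 6 enzymes compared in S-phase cells past 1.5-fold upward, where 11.9% of genes were, and ELOVL5 the 1 past it downward, where 11.7% were. The other enzymes had intervals that held 1. Over the enzymes compared, the ratio of G2/M to low cells ran from 0.779 (SCD, 0.648 to 0.938) to 1.22 (ACSL3, 0.953 to 1.56) at 2 mM, and from 0.868 (ELOVL6, 0.676 to 1.12) to 1.35 (FADS2, 1.06 to 1.76) at 0 mM.

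**Figure D2:**
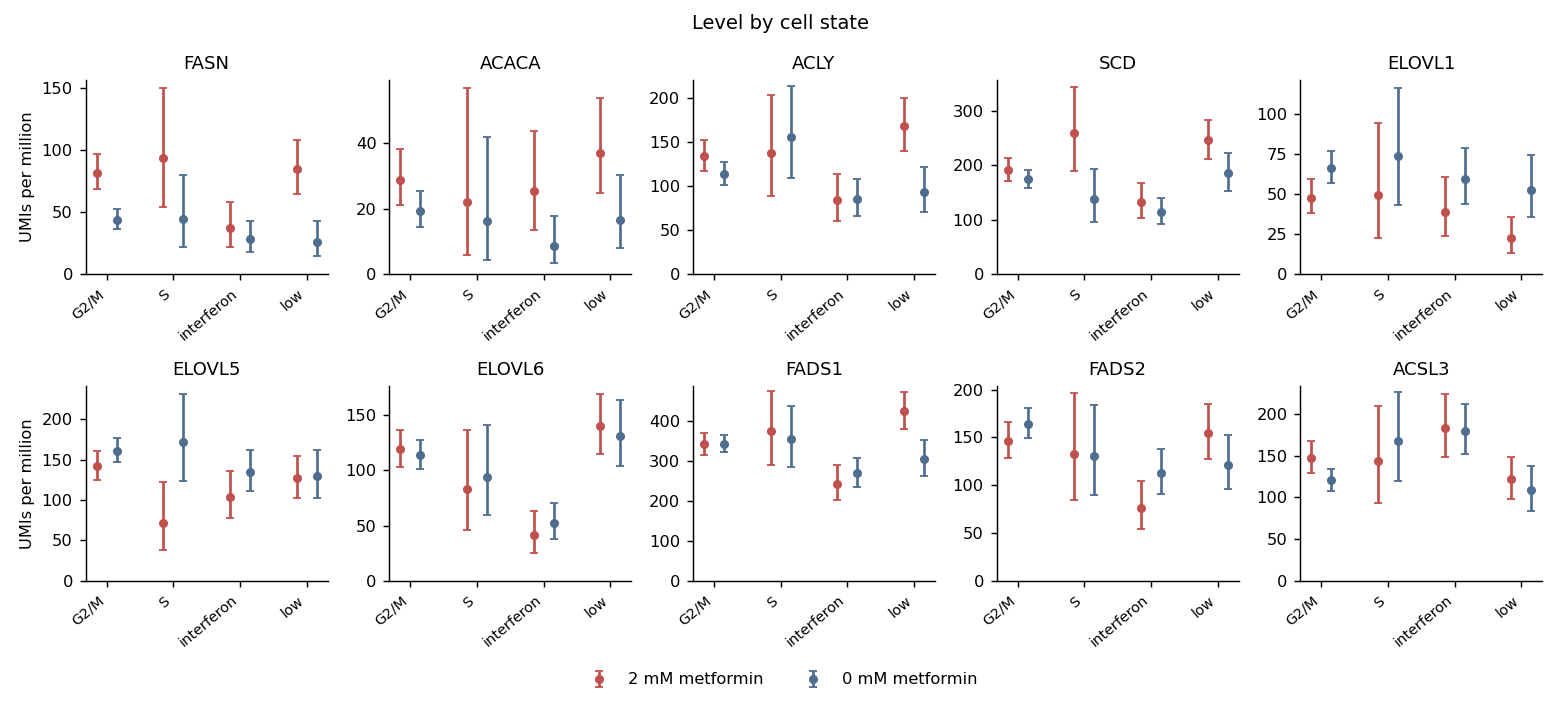
Level of each enzyme in CPM in G2/M, S-phase, interferon and low cells of the 2 mM library (red) and the 0 mM library (blue), with exact Poisson 95% intervals; each panel has its own vertical axis from 0. ELOVL6 and SCD are lowest in interferon cells of both libraries, ACSL3 is highest there, and FASN at 2 mM is lowest there.

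Interferon cells had less SCD and ELOVL6 and more ACSL3 than low cells of the same library, at both doses, when states were called at 3 UMIs. ELOVL6 had 41.1 CPM in interferon cells and 140 CPM in low cells at 2 mM, a ratio of 0.293 (0.174 to 0.471), and 51.9 CPM in interferon cells and 132 CPM in low cells at 0 mM, a ratio of 0.395 (0.265 to 0.581). SCD had 133 CPM in interferon cells and 246 CPM in low cells at 2 mM, a ratio of 0.541 (0.404 to 0.718), and 114 CPM in interferon cells and 186 CPM in low cells at 0 mM, a ratio of 0.612 (0.460 to 0.814). ACSL3 differed in the opposite direction, with 184 CPM in interferon cells and 122 CPM in low cells at 2 mM, a ratio of 1.51 (1.12 to 2.04), and 181 CPM in interferon cells and 109 CPM in low cells at 0 mM, a ratio of 1.66 (1.24 to 2.26). The promoters of these 3 genes, printed above, all held a GC box and none a match to the interferon element core within the window.

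At 2 mM, 6 of 8 enzymes compared were at least 1.5-fold lower in interferon than in low cells, where 12.9% of genes were, and 1 was at least 1.5-fold higher, where 9.73% were. At 0 mM, 2 of 8 were lower, where 8.95% of genes were, and 1 was higher, where 12.4% were. The sets of 8 differed by 1 enzyme, with FASN compared at 2 mM alone and ELOVL1 at 0 mM alone. The median log2 ratio of each set was -0.94 at 2 mM and -0.12 at 0 mM, beside -0.09 at 2 mM and -0.03 at 0 mM over all genes. Of the enzymes compared at both doses, ACLY, FADS1 and FADS2 were 1.5-fold lower at 2 mM and not at 0 mM. FASN had 37.2 CPM in interferon cells and 84.6 CPM in low cells at 2 mM, a ratio of 0.439 (0.249 to 0.743), and 28.4 CPM (23 UMIs) in interferon cells and 26.3 CPM (16 UMIs) in low cells at 0 mM. ACLY had a ratio of 0.501 (0.346 to 0.713) at 2 mM and 0.911 (0.632 to 1.32) at 0 mM. FADS1 had 0.570 (0.459 to 0.703) at 2 mM and 0.882 (0.722 to 1.08) at 0 mM, and FADS2 0.493 (0.334 to 0.714) at 2 mM and 0.925 (0.673 to 1.27) at 0 mM. These ratios share the low cells with the dose ratios in low cells above and are no separate evidence. Called at 2 UMIs in place of 3, which left 98 low cells at 2 mM and 49 at 0 mM, the log2 ratio of SCD was -0.37 at 2 mM and -0.11 at 0 mM, that of ELOVL6 -1.46 at 2 mM and -0.28 at 0 mM, and that of ACSL3 -0.022 at 2 mM and 0.80 at 0 mM. Called at 2000 UMIs per cell, with 42 low cells at 2 mM and 21 at 0 mM, the log2 ratio of SCD was -0.41 at 2 mM and -0.01 at 0 mM, and that of ELOVL6 was -1.01 at 2 mM and turned to 0.66 (-0.68 to 2.25) at 0 mM. Under that setting FASN at 2 mM had -0.18 (-1.33 to 0.98), FADS2 -0.11 (-0.94 to 0.73) and ACSL3 0.29 (-0.56 to 1.16), so that these and SCD were inside 1.5-fold. ACLY at -0.76 (-1.82 to 0.26), with an interval that held 0, and FADS1 at -1.03 (-1.58 to -0.49) stayed past it at 2 mM. Over all 10 enzymes, with no minimum, the median log2 ratio at 0 mM turned to 0.32 at 2 UMIs, with 4 enzymes 1.5-fold higher and 0 lower. It was 0.33 at 2000 UMIs per cell, with 4 higher and 1 lower. The medians at 2 mM were -0.57 at 2 UMIs and -0.46 at 2000 UMIs per cell. No share over all genes was counted for these settings.

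Many G2/M cells also carried interferon transcripts, 27.1% of them at 2 mM and 46.6% at 0 mM. In 2 splits chosen after the first values were seen, interferon-high cells were therefore set against the rest over all states and inside G2/M cells. Over all states ELOVL6 had a ratio of 0.468 (0.352 to 0.615) at 2 mM and 0.568 (0.463 to 0.695) at 0 mM, and ACSL3 1.65 (1.36 to 1.98) at 2 mM and 1.55 (1.31 to 1.83) at 0 mM. SCD had 0.563 (0.462 to 0.681) at 2 mM and 0.758 (0.649 to 0.885) at 0 mM. Inside G2/M cells ACSL3 had 1.82 (1.40 to 2.36) at 2 mM and 1.43 (1.15 to 1.79) at 0 mM, and ELOVL6 0.720 (0.504 to 1.01) at 2 mM and 0.703 (0.546 to 0.90) at 0 mM. SCD had 0.534 (0.394 to 0.713) at 2 mM inside G2/M cells, and at 0 mM 0.862 (0.709 to 1.05), which could not be told from 1. Inside G2/M the median interferon-high cell had 3716 UMIs at 2 mM and 3022.5 at 0 mM. The median of the rest was 3460 UMIs at 2 mM and 4658 at 0 mM, and the part of depth in these ratios was not tested. All 3 genes lay on the same side of 1 in both splits at both doses, with intervals inside G2/M cells that held 1 for ELOVL6 at 2 mM and SCD at 0 mM. The count of enzymes at least 1.5-fold lower depended on the split. Over all states it was 6 of 8 at 2 mM, where 8.79% of genes were, and 1 of 8 at 0 mM, where 9.92% were. Inside G2/M cells it was 2 of 8 at 2 mM, FASN and SCD, where 10.9% of genes were, and 0 of 8 at 0 mM, where 11.1% were.

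Cells rich in cholesterol synthesis transcripts also had more of most fatty acid enzymes. Cells with 3 or more UMIs of 23 genes of cholesterol synthesis and uptake, 405 of 800 at 2 mM and 522 of 944 at 0 mM, were set against the rest. At each dose 8 enzymes were compared, FASN at 2 mM alone and ELOVL1 at 0 mM alone, and all 8 had a ratio above 1. Their median log2 ratio was 0.61 at 2 mM and 0.46 at 0 mM, against 0.04 at 2 mM and 0.05 at 0 mM over all genes. ACACA, under the minimum, had a ratio of 0.928 (0.604 to 1.42) at 2 mM and 1.30 (0.795 to 2.15) at 0 mM. At 2 mM 4 of the 8 compared were at least 1.5-fold higher, where 2.25% of genes were, and 0 lower, where 2.42% were. At 0 mM 3 were higher, where 2.53% of genes were, and 0 lower, where 2.00% were.

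ELOVL6 had 136 CPM in cholesterol-gene-high cells and 81.0 CPM in the rest at 2 mM, a ratio of 1.68 (1.34 to 2.11), and 137 CPM in cholesterol-gene-high cells and 64.7 CPM in the rest at 0 mM, a ratio of 2.12 (1.73 to 2.62). SCD had ratios of 1.65 (1.39 to 1.95) at 2 mM and 1.89 (1.61 to 2.23) at 0 mM, and FASN 1.73 (1.31 to 2.28) at 2 mM and, from levels under the minimum, 1.86 (1.33 to 2.63) at 0 mM. ELOVL5 was past 1.5-fold at 2 mM, at 1.56 (1.27 to 1.92), and FADS2 at 0 mM, at 1.61 (1.37 to 1.91). ACSL3 had a ratio of 1.03 (0.854 to 1.24) at 2 mM and 1.05 (0.887 to 1.24) at 0 mM, with intervals that held 1 at both doses.

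Interferon-high cells were fewer among cholesterol-gene-high cells, 24.2% against 39.5% of the rest at 2 mM and 42.0% against 57.8% at 0 mM. In a split of only the cells under 3 interferon UMIs, chosen after these values were seen, ACSL3 had a ratio of 1.39 (1.06 to 1.82) at 2 mM and 1.33 (1.02 to 1.76) at 0 mM. FASN had 1.53 (1.12 to 2.12) at 2 mM and 2.28 (1.38 to 3.94) at 0 mM, and ELOVL6 1.48 (1.14 to 1.92) at 2 mM and 1.96 (1.5 to 2.59) at 0 mM. SCD had 1.39 (1.15 to 1.69) at 2 mM, inside 1.5-fold, and 1.99 (1.59 to 2.51) at 0 mM. The enzymes at least 1.5-fold higher were 2 of 8 at 2 mM, FASN and ELOVL5, where 3.56% of genes were, and 4 of 9 at 0 mM, where 3.33% were. Within these cells ACSL3 thus lay on the same side of 1 as the other enzymes. Counts near the threshold were common in this split too, with 32.2% of 2 mM cells and 32.6% of 0 mM cells at it or 1 UMI under it.

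**Figure D3:**
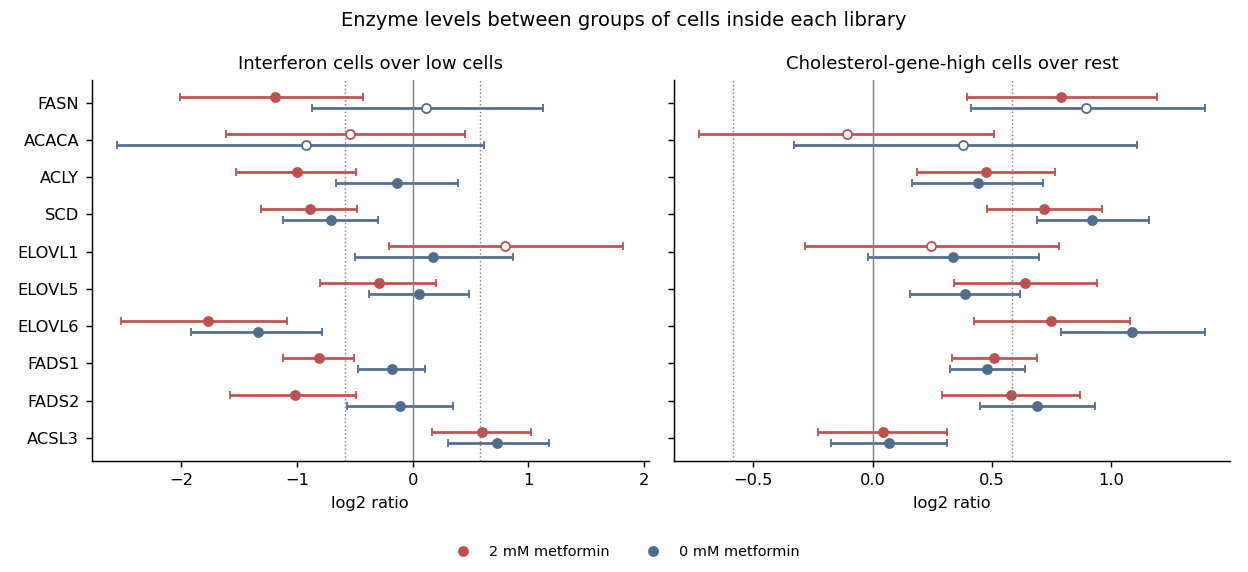
Log2 ratio of each enzyme's CPM in interferon over low cells (left) and in cholesterol-gene-high cells over the rest (right), inside the 2 mM library (red) and the 0 mM library (blue), with 95% intervals; open points are under the expression minimum and dotted lines mark 1.5-fold. ELOVL6 lies farthest left in the first panel at both doses, ACSL3 lies right of 0 there and near 0 in the second panel.

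Cells with 3 or more UMIs of hypoxia genes such as VEGFA, BNIP3 and CA9 were set against the rest in the same way, and SCD had the highest ratio of the compared enzymes at 0 mM. SCD had 183 CPM in hypoxia-high cells and 204 CPM in the rest at 2 mM, a ratio of 0.899 (0.736 to 1.09), and 235 CPM in hypoxia-high cells and 142 CPM in the rest at 0 mM, a ratio of 1.66 (1.41 to 1.95). FADS2 had 1.01 (0.80 to 1.27) at 2 mM and 1.31 (1.09 to 1.56) at 0 mM, and ACSL3 0.779 (0.610 to 0.986) at 2 mM and 1.17 (0.962 to 1.41) at 0 mM. The median hypoxia-high cell at 0 mM had 2964 UMIs and the median of the rest 3818, and the part of depth in the SCD ratio was not tested. The difference between the doses was not tested either.

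Of the compared genes that control, supply or use the pathway, none reached the ratio of FASN at 2 mM over 0 mM. Of the regulators, SREBF1, which encodes SREBP-1, had 28.8 CPM at 2 mM and 25.4 at 0 mM, and SREBF2 had 45.0 CPM at 2 mM and 37.0 at 0 mM. Their escort SCAP had 30.6 CPM at 2 mM and 26.1 at 0 mM, and all 3 were under the minimum. INSIG1, which retains the SREBP complex in the endoplasmic reticulum and is itself a target, had 268 CPM in 2 mM cells against 298 CPM in 0 mM cells, with a ratio of 0.90 (0.825 to 0.981). MBTPS1, the protease of the first SREBP cleavage, was the 1 of 5 compared regulators past 1.5-fold, at 1.58 (1.30 to 1.92). The other extremes of this list were INSIG2 at 1.15, NR1H2 at 0.878 and MLX at 0.818, and the median log2 ratio was -0.15.

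Suppliers of citrate and NADPH had 0 of 6 compared genes past 1.5-fold and a median of -0.19. The citrate carrier SLC25A1 had 118 CPM in 2 mM cells against 154 CPM in 0 mM cells, with a ratio of 0.764 (0.672 to 0.867), and the pentose phosphate enzyme PGD a ratio of 0.770 (0.661 to 0.896), with malic enzyme ME1 at 1.03 and IDH1 at 0.952. The remaining elongation and desaturation genes had 0 of 5 past 1.5-fold and a median of -0.18, from the electron donor CYB5R3 at 0.741 and PTPLA at 0.880 to HSD17B12 at 0.963 and CYB5B at 1.12. Fatty acid oxidation had 0 of 11 past 1.5-fold and 10 of 11 below 1, and how many of all genes lay below 1 was not counted. Its median was -0.11 against 0.02 over all genes (-0.20 against -0.07 with TMM factors). DECR1, a reductase for unsaturated chains, was lowest at 0.692 (0.602 to 0.793), followed by ECHS1 at 0.815, and ECI1 and HADHB were highest at 0.986 and 1.01.

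Activation and transport genes had 0 of 3 past 1.5-fold, with DBI, an acyl-CoA binding protein, at 1.17, ACSL4 at 1.17 and ACBD3 at 0.924. Esterification and lipid droplet genes had 0 of 7 past 1.5-fold and a median of 0.08. The acyltransferases AGPAT2 and AGPAT1 were highest at 1.39 (1.20 to 1.61) and 1.37 (1.13 to 1.66), and SOAT1 and the droplet coat PLIN2 lowest at 0.860 and 0.876. The 19 cholesterol genes compared had a median of -0.09, with the sterol synthesis genes SQLE and TM7SF2 at 1.48 each and IDI1 and ACAT2 at 0.680 and 0.685.

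**Figure D4:**
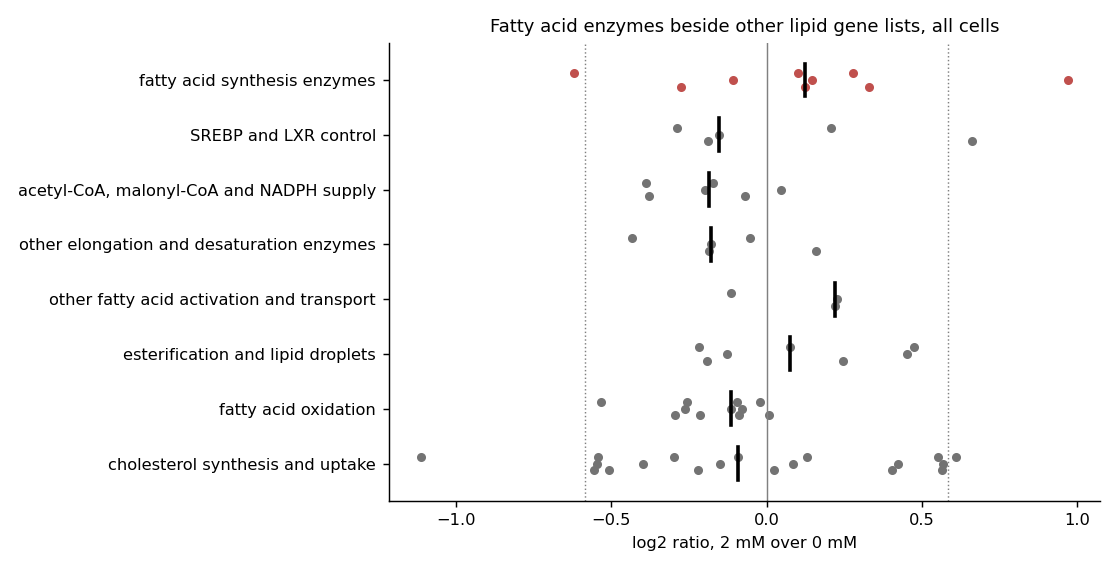
Log2 ratio of CPM at 2 mM over 0 mM, all cells, for the compared genes of the fatty acid synthesis enzymes (red) and of 7 other lipid gene lists (grey); black bars are list medians and dotted lines mark 1.5-fold. FASN is the point farthest right at 0.97, and the list medians lie between -0.19 and 0.22.

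In interferon over low cells these lists lay on different sides of all genes. Cholesterol genes were lower than in low cells, with a median log2 ratio of -0.77 at 2 mM and -0.38 at 0 mM, and suppliers of citrate and NADPH had medians of -0.61 at 2 mM and -0.52 at 0 mM. Esterification and droplet genes had medians of 0.61 at 2 mM and 0.15 at 0 mM, above those of all genes. Single genes named here were picked after their values were seen. LPIN2, a phosphatidate phosphatase, had 192 CPM in interferon cells and 78.0 CPM in low cells at 2 mM, a ratio of 2.46 (1.76 to 3.46), and a ratio of 1.97 (1.35 to 2.92) at 0 mM. PLIN2 had ratios of 1.56 (1.15 to 2.12) at 2 mM and 1.46 (1.13 to 1.89) at 0 mM, and HMGCS1, an early enzyme of sterol synthesis, 0.442 (0.345 to 0.562) at 2 mM and 0.642 (0.528 to 0.779) at 0 mM. LPIN1, of the same list as LPIN2, had ratios of 0.573 (0.402 to 0.805) at 2 mM and 0.656 (0.475 to 0.905) at 0 mM. Of 8 esterification and droplet genes compared at 2 mM, 4 were at least 1.5-fold higher, where 9.73% of all genes were, and 1 lower, where 12.9% were. At 0 mM 1 of 7 was higher, where 12.4% of all genes were, and 1 lower, where 8.95% were. The list was thus not on 1 side. ACSL3, PLIN2 and LPIN2 had ratios above 1 at both doses, and SCD, ELOVL6, HMGCS1 and LPIN1 below 1.

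Over the 8 combinations of library and state, levels on the log2(CPM + 5) scale were compared between genes as a description. Among the enzymes ACLY and FADS1 were the most alike pair (Pearson's r = 0.93) and ELOVL6 and ACSL3 the least alike (r = -0.85). Of 4013 genes ranked, FUNDC2 (0.979), PGAM1 (0.978), TTC1 (0.963), SORT1 (0.960) and PRPF38B (0.952) were most like FASN. Those most like SCD were LPP (0.968), ATP5A1 (0.958), UQCR10 (0.957), APRT (0.956) and ATP5E (0.953). The 8 points come from 2 libraries and share their depth and preparation, and so many genes ranked over so few points give high values for some.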

How the data were processed

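The authors deposited whole counts of UMIs for 19826 genes in 2000 barcodes, 1000 per library, from single-cell libraries of MDA-MB-231 mammospheres. Reads were handled with bcl2fastq and STAR 2.5.0a on hg19, per the submitters' processing notes. Barcode selection, UMI collapsing, annotation and strand use are not given in these sources. Coordinates are given only for the RefSeq promoters of GRCh38.p14.

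Cells are barcodes of 500 or more UMIs and 300 or more genes. No doublet caller was run, since doublets of 1 line join like cells, and an alternative dropped the 5% of cells richest in UMIs. No barcode was shared by the libraries (0 in both). In each library some barcodes lay 1 base apart, and merging them left 888 cells at 2 mM and 931 at 0 mM. A sum of 3 counts equals 0.919 CPM at 2 mM and 0.681 CPM at 0 mM. Counts were summed per library or state and scaled to CPM. Ratios have exact conditional Clopper-Pearson intervals, sums Poisson and shares binomial intervals, all exact at 95%. With 1 library per dose no p-value is given. The computation was tested on simulated data. States were called after thinning to 1000 UMIs (191 cells at 2 mM and 56 at 0 mM were left out), and levels within states use all UMIs of the cells. Named genes are the 10 enzymes, the members of each list past 1.5-fold, up to 2 others at each end, the SREBP genes, the 5 most like FASN and SCD, and cell type markers. Some genes of the cholesterol list are not reported here. The enzymes, lists and rules were chosen with earlier results of these data known. Python 3.11.15, numpy 2.4.6, scipy 1.17.1, pandas 2.3.3, matplotlib 3.10.9, R 4.3.3 and edgeR 4.0.16 (TMM factors only) were used.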

Additional observations from a re-analysis of the deposited data

How the results depend on the processing

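FASN was at least 1.5-fold higher at 2 mM under all 11 alternatives of cell filter, barcode merging, scaling, weighting and expression minimum, with log2 ratios of 0.88 to 1.10. ELOVL1 was past 1.5-fold downward under 10 of 11, and with cells weighted equally its log2 ratio was -0.45, so that 0 enzymes were lower. With no CPM minimum 2 of 10 enzymes were higher, FASN and ACACA, where 1978 of 13047 genes were. ELOVL6 had a log2 ratio of 0.12 and, with states weighted equally, -0.03. TMM factors gave 140 genes higher and 223 lower of 4105 in place of 207 and 136, with a median log2 ratio of -0.07 in place of 0.02, and no enzyme changed side. List medians changed sign for esterification with TMM factors (-0.01) and, with no CPM minimum, for SREBP and LXR control (0.19) and for cholesterol genes (0.02). In interferon over low cells at 2 mM, ACSL3 had a log2 ratio of -0.022 (-0.63 to 0.58) when states were called at 2 UMIs, and at 0 mM ELOVL6 had 0.66 (-0.68 to 2.25) when states were called at 2000 UMIs per cell, which left 48 interferon and 21 low cells. The cause was not tested in either case. Over all enzymes, 10 of 60 interferon over low ratios at 2 mM and 12 of 60 at 0 mM left the interval of the value reported. A further 1 at each dose, given above, changed side from a reported interval that left out 1. Some ratios with a reported interval that held 1 changed side too. At 2 mM the log2 ratio of ACACA went from -0.54 to 0.69 inside G2/M cells, and that of ELOVL5 from -0.29 to 0.11 at 2 UMIs. FASN in low cells had a 2 mM over 0 mM ratio of 5.47, 2.30 and 4.44 with states called at 2 UMIs, at 5 UMIs and at 2000 UMIs per cell. At this depth ACACA stayed under the minimum in both libraries, and so did FASN in interferon over low cells at 0 mM. No paired analysis was possible because each dose had 1 library.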
